A study of Solanum lycopersicum with 84 samples.

Results

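The endosperm of tomato (Solanum lycopersicum, cultivar Moneymaker) was compared between seeds of breaker fruits (B, 63 days after flowering, DAF) and seeds of mature green fruits (MG, 56 DAF). The comparison rests on 6 of the 84 RNA-seq libraries of the series, all those labelled endosperm at these 2 stages, with 3 replicate libraries at each stage. Of the 33976 genes in the count table, 24676 passed the filter on low counts and were tested. The series followed whole seeds and then dissected embryo, endosperm and seed coat along development. It asked which genes accompany the acquisition of seed vigour. The plants were grown in a controlled greenhouse, and no treatment separated the stages. B fruits were recognised by their colour, whereas MG fruits were picked by their place on the truss relative to a B fruit. Each library came from the endosperm of several seeds, freed by hand from embryo and seed coat, so it averages over seeds and over all regions of the tissue. The study calls the replicates biological, but the labels do not say whether they came from separate plants. The p-values therefore measure only the spread between replicate libraries. That spread was estimated over all 84 libraries of the series, not over the 6 compared alone.

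In the tomato seed the endosperm stays alive around the embryo. Its cells store oil and protein, their thick walls are rich in galactomannans, and the part that covers the root tip restrains germination. Filling ends before the fruit ripens, and the seed then passes through late maturation inside a fruit that changes colour. Breaker is the first visible sign of that change. Desiccation tolerance is gained while the seed still fills, whereas storage life goes on increasing through late maturation. Transcripts for protective proteins such as LEA proteins are abundant in maturing seeds.

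Estimated counts summed to between 20959986 and 21456057 in the 6 libraries. Levels are given as CPM, the count of a gene per 1e6 counts of its library, and 3 counts amount to between 0.14 and 0.143 CPM. CPM is not corrected for gene length, so levels are compared between libraries and not between genes. The genes marked by the study as preferential for endosperm on these same libraries were abundant in both stages. Their summed level was between 1836 and 1976 CPM at B and between 1925 and 2203 CPM at MG (168 genes), against 48.0 to 238 CPM in the embryo libraries of the same stages. The 109 embryo-preferential genes summed to between 31.3 and 35.6 CPM at B and between 29.5 and 34 CPM at MG, against 222 to 329 CPM in those embryo libraries. The 85 seed coat-preferential genes summed to 19.7, 23.8 and 14.2 CPM at B and to 36.4, 28.5 and 17.5 CPM at MG, whereas seed coat libraries of 49 DAF held between 5936 and 8520 CPM. Of those 85 genes, 21 had no counts in any B library and 13 had none in any MG library.

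The 3 MG libraries were not equally close to B. Over all genes tested, the correlation of log2(CPM + 1) with the B libraries was between 0.974 and 0.978 for MG replicate 1, between 0.985 and 0.989 for MG replicate 2 and between 0.991 and 0.993 for MG replicate 3. Among B libraries it was between 0.994 and 0.995.

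More genes fell than rose between MG and B. A gene was called when its adjusted p was under 0.05 and its log2 fold change lay beyond 1 in either direction (edgeR quasi-likelihood test, Benjamini-Hochberg over 24676 genes). By this rule 486 genes were called, 1.97% of those tested. Of them, 66 genes rose (0.267%) and 420 fell (1.70%). With no fold threshold the split was closer, with 503 genes higher and 698 lower at an adjusted p under 0.05. The falls were also the steeper changes. The median log2 fold change of the 420 was −2.56, against 1.55 for the rises and 0 over all genes tested. A log2 change past 3 was reached by 171 falling genes and by 7 rising genes. In 104 of the falling genes every B library held 3 counts or fewer.

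Most called genes were of low abundance. The mean at the stage where a gene was higher had a median of 3.65 CPM for falling genes and of 2.43 CPM for rising genes, and 122 called genes reached 10 CPM (110 falling, 12 rising). Libraries of the stages did not overlap in 410 of the 486 called genes. Over all genes tested, every B library lay above every MG library in 19.0% and below every MG library in 10.0%, and these shares were 13.5% and 14.6% after TMM scaling.

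**Figure D1:**
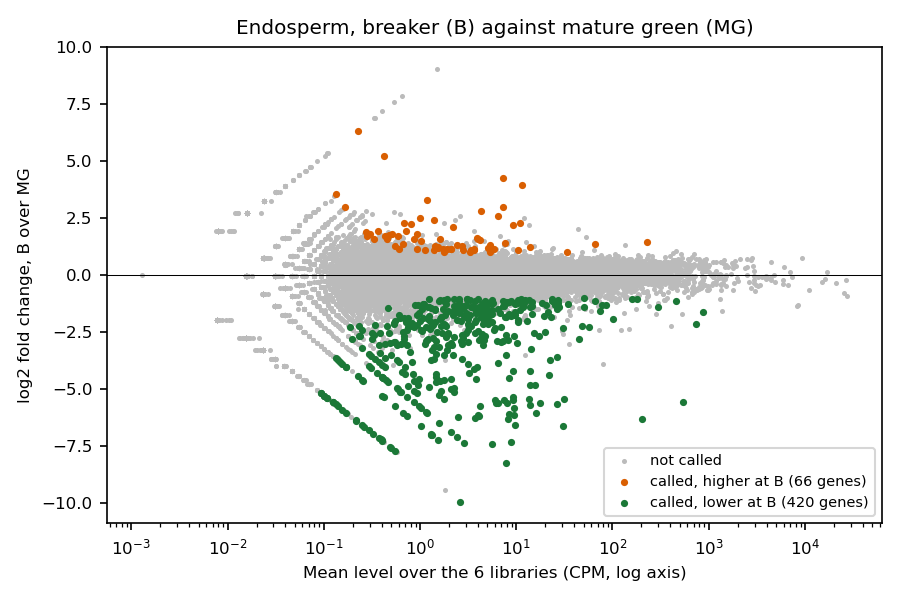
Change of each of the 24676 tested genes in the endosperm (log2 fold change, B over MG) against its mean level over the 6 libraries (CPM, log axis), with called genes in colour. The 420 genes called lower at B reach far below the 66 called higher, mostly at levels under 10 CPM.

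The number of calls depended on single libraries. Without MG replicate 1 it was 137 (14 higher, 123 lower), of which 131 were among the 486 and in the same direction. Without B replicate 2 it was 274, and without B replicate 3 it was 265. MG replicate 1 was the highest MG library in 367 of the 420 falling genes and MG replicate 3 the lowest in 378. Summed over the 420 genes, levels were 2950, 2226 and 2224 CPM in B replicates 1, 2 and 3, against 14671, 8202 and 5260 CPM in MG replicates 1, 2 and 3. The genes were chosen by this difference, so the lower sums at B follow from the choice. In these sums the MG libraries spread far more than the B libraries.

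The falling genes were often ones that are abundant in another seed tissue. At 49 DAF, the last stage at which the seed coat was sequenced, 303 of the 420 (72.1%) had a higher mean in the seed coat than in endosperm or embryo, against 57.7% of the 24182 tested genes detected then. Those 303 had a median log2 fold change of −3.23 and the other 117 one of −1.67. Summed, they had 629, 619 and 561 CPM in the B libraries and 7801, 2868 and 1459 CPM in the MG libraries. For the other 117 genes the sums were 2321, 1607 and 1663 CPM at B and 6870, 5334 and 3802 CPM at MG. Both sets were chosen by their fall between these libraries, so the separation of their sums is not a further result. The part of residual seed coat in these falls was not tested. Of the 85 seed coat-preferential genes themselves, 84 were tested. Of these 3 fell and none rose, against 1.70% and 0.267% over all genes tested. Their median log2 fold change was −0.05 (0 without MG replicate 1), with 48 negative and 25 positive values. Of the 85 genes, 51 had at most 3 counts in every B library and 50 in every MG library. Of 109 tested genes held of module ME9, 18 fell and 1 rose. The study assigned this module from co-expression over these libraries and placed it with the seed coat. Its median was −0.56 (−0.06 without MG replicate 1). In bulk tissue, fewer cells of a type and less RNA per cell cannot be told apart.

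One of the steepest falls was that of Solyc02g014730, annotated with fatty acid metabolism and oxidation-reduction. It had 0, 0.142 and 0 CPM at B, against 26.0, 17.1 and 3.31 CPM at MG. At B it was no more than 3 counts in any library, at least 108-fold lower than the MG mean (adjusted p = 2.9e-10, edgeR). Its mean in the seed coat at 49 DAF was 843 CPM.

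Solyc02g063330, annotated with defence response to bacteria, had 0.333, 0.284 and 0.191 CPM at B, against 28.9, 21.5 and 5.08 CPM at MG (log2 fold change −6.15, SE 0.74, adjusted p = 2.5e-08, edgeR). Solyc01g095750, annotated with long-chain fatty acid metabolism, had 0.761, 1.33 and 0.954 CPM at B, against 34.4, 14.7 and 3.54 CPM at MG (−4.19, SE 0.60, adjusted p = 6.9e-07, edgeR). In both genes the B libraries were alike and every MG library lay above them, with MG replicate 1 highest and MG replicate 3 lowest. Solyc05g056170, annotated with cinnamic acid synthesis, an early step of the phenylpropanoid pathway, had 2.95, 6.82 and 2.96 CPM at B, against 87.9, 46.0 and 11.5 CPM at MG (−3.60, SE 0.64, adjusted p = 1.0e-04, edgeR). Means in the seed coat at 49 DAF were 630, 1035 and 1698 CPM for these 3 genes, in the order given. All 4 calls of this and the preceding paragraph held when any 1 of the 6 libraries was left out.

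Solyc04g050570, which had no annotation in the tables used, fell as steeply. It had 0.0476, 0 and 0.143 CPM at B, against 28.0, 4.84 and 0.792 CPM at MG, at least 78.4-fold lower at B than the MG mean (adjusted p = 1.1e-06, edgeR). The stages did not overlap, although MG replicate 1 carried most of the MG signal. Its mean at 49 DAF was 53.5 CPM in the endosperm and 750 CPM in the seed coat.

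The largest losses in level were those of 3 genes that also had no annotation. Solyc08g080490 had 418, 208 and 234 CPM at B, against 1781, 1095 and 720 CPM at MG (log2 fold change −2.14, SE 0.55, adjusted p = 0.011, edgeR). It was the end of a longer descent, since its endosperm mean was 43760 ± 1789 CPM (SD, n = 3) at 35 DAF and 8841 ± 1760 CPM at 49 DAF. The gene was more abundant in the embryo and fell there too. Embryo levels were 4545, 3199 and 2820 CPM at B, against 21856, 8971 and 7116 CPM at MG (−2.08, SE 0.55, adjusted p = 0.013, edgeR). The endosperm call was lost without B replicate 2, B replicate 3 or MG replicate 1 (adjusted p of up to 0.157 over the 6 fits that leave out 1 library).

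Solyc04g150160 had 17.1, 26.2 and 27.9 CPM at B, against 2527, 381 and 293 CPM at MG (−5.59, SE 0.98, adjusted p = 6.6e-05, edgeR). MG replicate 1 stood far above the other MG libraries, which were still at least 10 times any B library. Without MG replicate 1 the log2 fold change was −3.90 and the call held (adjusted p = 0.010, edgeR). Its mean was 38864 CPM in the seed coat at 49 DAF, when it averaged 1761 ± 1571 CPM in the endosperm (SD, n = 3).

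Solyc06g048840 had 588, 394 and 346 CPM at B, against 1271, 1587 and 993 CPM at MG (−1.61, SE 0.50, adjusted p = 0.047, edgeR). The groups did not overlap, but the call held in only 1 of the 6 fits with a library left out, the one without MG replicate 3. This gene was most abundant in the embryo, with between 18897 and 19648 CPM at B and between 20992 and 24719 CPM at MG.

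Among genes described by name, the falls were moderate. The abscisic acid receptor PYL10 (Solyc01g095700) belongs to the family that binds this dormancy hormone and then blocks its phosphatase repressors. It had 47.5, 44.5 and 36.6 CPM at B, against 147, 62.7 and 57.1 CPM at MG (log2 fold change −1.14, SE 0.35, adjusted p = 0.044, edgeR). There was no overlap, but MG replicate 1 was more than 2 times either other MG library. Without it the log2 fold change was −0.56 and the call was lost (adjusted p = 0.668), and it was also lost without any 1 of the B libraries.

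A SWEET sugar transporter (Solyc04g064620), of a family that lets sucrose or hexoses pass membranes in both directions, had 9.56, 7.34 and 8.59 CPM at B, against 22.9, 23.2 and 15.8 CPM at MG (−1.36, SE 0.33, adjusted p = 0.0071, edgeR). All 3 MG libraries were above the B libraries by more than the spread within B. The call was lost without B replicate 2 or MG replicate 1 (adjusted p of up to 0.068). The transporter had been highest in the endosperm at 42 DAF, with a mean of 110 CPM.

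Ferredoxin (Solyc01g103920), a small electron carrier of plastids, had 9.09, 4.12 and 6.77 CPM at B, against 20.6, 18.7 and 11 CPM at MG (−1.40, SE 0.43, adjusted p = 0.040, edgeR). A defensin (Solyc07g007710), of a family of small antimicrobial peptides, had 149, 111 and 110 CPM at B, against 282, 259 and 179 CPM at MG (−1.04, SE 0.30, adjusted p = 0.029, edgeR). A P-loop nucleoside triphosphate hydrolase (Solyc07g044970) had 30.2, 13.1 and 17.5 CPM at B, against 168, 63.4 and 48.3 CPM at MG (−2.28, SE 0.62, adjusted p = 0.018, edgeR). Every MG library was above every B library in these 3 genes. All 3 calls were lost without B replicate 2, B replicate 3 or MG replicate 1, and those of ferredoxin and the defensin also without MG replicate 2. Over the 6 fits the highest adjusted p was 0.257 for ferredoxin, 0.222 for the defensin and 0.325 for the P-loop gene. PYL10 apart, these named genes and the SWEET transporter belong to module ME10, which the study assigned from co-expression over these same libraries and related to desiccation tolerance.

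Solyc03g115850, annotated with secondary cell wall formation, had 7.94, 8.05 and 8.02 CPM at B, against 21.0, 16.0 and 12.3 CPM at MG (log2 fold change −1.12, SE 0.26, adjusted p = 0.0048, edgeR). Solyc06g069570, annotated with vesicle exocytosis, had 8.80, 9.38 and 8.83 CPM at B, against 24.9, 14.8 and 15.1 CPM at MG (−1.11, SE 0.21, adjusted p = 2.5e-04, edgeR). The B libraries of both genes were close to one another and below all MG libraries, and both calls were lost only without MG replicate 1.

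**Figure D2:**
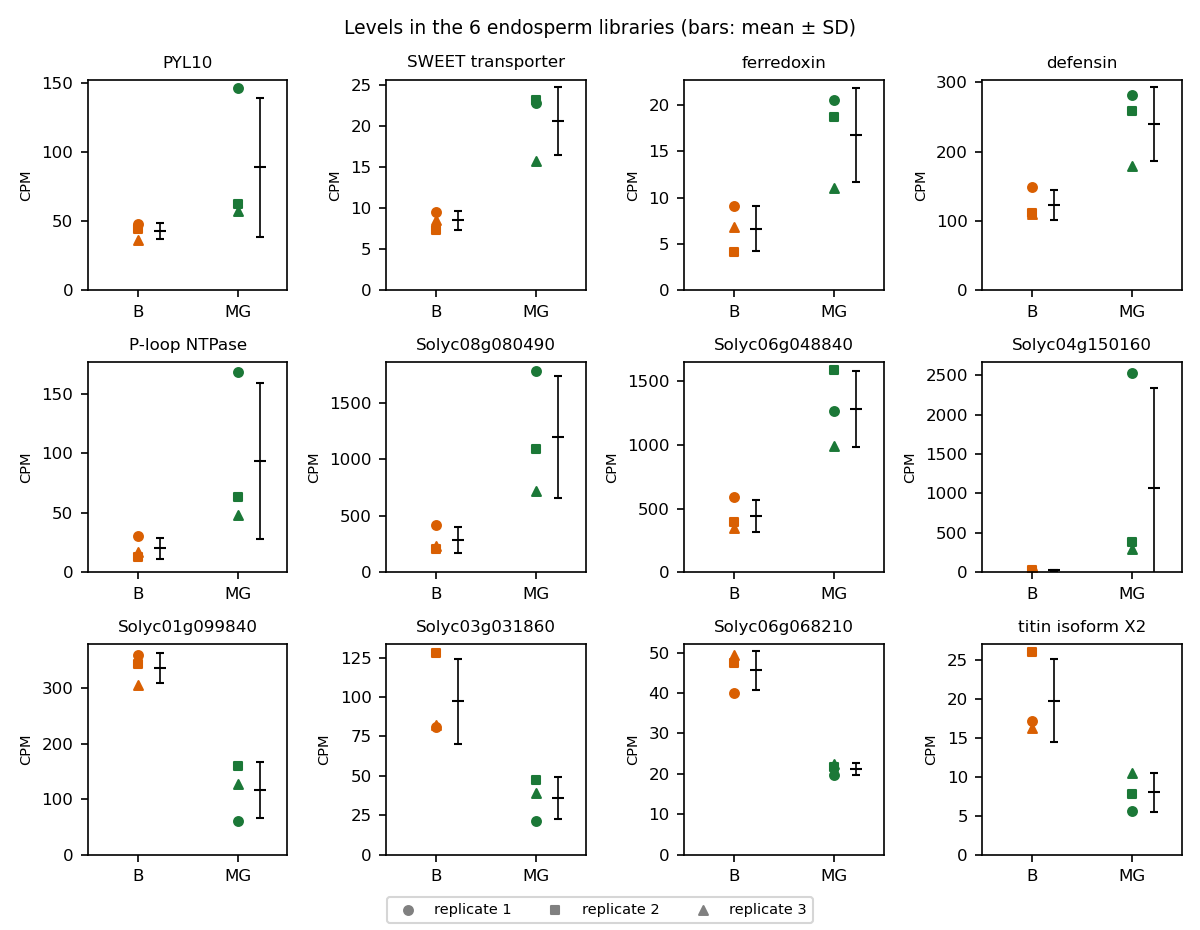
Level (CPM, axes from 0) of 12 named genes in each of the 3 B and 3 MG endosperm libraries, with symbols for replicates 1 to 3 and bars for the mean ± SD. The first 8 panels fell and the last 4 rose, and MG replicate 1 (circle) is the highest MG library in 6 of the 8 falling genes, for example 147 CPM for PYL10.

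Genes of smaller levels among the falls included a DNAJ heat shock domain protein (Solyc01g098280), a co-chaperone type, with 2.90, 3.03 and 3.34 CPM at B, against 10.4, 5.21 and 4.10 CPM at MG (−1.17, SE 0.28, adjusted p = 0.0057, edgeR). A photosystem II 5 kDa protein (Solyc01g008510) had 0.0951, 0.190 and 0 CPM at B, against 0.982, 0.986 and 0.373 CPM at MG (−3.05, SE 0.70, adjusted p = 0.0034, edgeR). A TMV resistance protein N gene (Solyc01g109100), of the class of intracellular immune receptors, had 1.28, 1.47 and 0.334 CPM at B, against 6.31, 2.87 and 2.38 CPM at MG (−1.98, SE 0.57, adjusted p = 0.029, edgeR). The stages did not overlap in any of them. A reticuline oxidase-like protein (Solyc02g081220) had 2.00, 2.18 and 2.10 CPM at B, against 6.31, 4.70 and 4.10 CPM at MG (−1.35, SE 0.37, adjusted p = 0.019, edgeR). The call of the DNAJ gene was lost without MG replicate 1, and that of the photosystem II protein without B replicate 3 (adjusted p = 0.052). The calls of the TMV resistance and reticuline oxidase-like genes were lost without any 1 of the B libraries or MG replicate 1.

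Of the 66 rising genes, 49 reached 1 CPM and few carried a description. Together they summed to 699, 959 and 624 CPM at B, against 164, 314 and 283 CPM at MG, a separation that follows from how they were chosen. B replicate 2 was the highest B library in 31 of the 66, and without that library 31 genes rose. The largest gain was that of Solyc01g099840, which had no annotation. It had 359, 344 and 305 CPM at B, against 60.4, 159 and 127 CPM at MG (log2 fold change 1.46, SE 0.39, adjusted p = 0.015, edgeR). Every B library was above every MG library, with MG replicate 1 lowest. The call was lost without MG replicate 1 (log2 fold change 1.16, adjusted p = 0.232).

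Solyc06g068210 had 40.1, 47.4 and 49.4 CPM at B, against 19.6, 21.7 and 22.5 CPM at MG (1.02, SE 0.13, adjusted p = 1.4e-07, edgeR). Both stages were tight in this gene. Its fold change lay at the threshold, so the call was lost without B replicate 3 or MG replicate 1, although the adjusted p stayed at 2.6e-05 or below in all 6 fits. Solyc03g031860 had 81.3, 128 and 82.2 CPM at B, against 21.4, 47.4 and 39.2 CPM at MG (1.35, SE 0.42, adjusted p = 0.046, edgeR), and its call was lost whichever library was left out.

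Solyc03g093550 had 15.4, 7.77 and 9.95 CPM at B, against 1.63, 2.37 and 1.28 CPM at MG (2.58, SE 0.57, adjusted p = 0.0024, edgeR). Its call held in all 6 fits with a library left out. It had no annotation. A gene described as titin isoform X2 (Solyc02g086458) had 17.1, 26.0 and 16.3 CPM at B, against 5.57, 7.84 and 10.5 CPM at MG (1.23, SE 0.35, adjusted p = 0.026, edgeR), and its call was lost without B replicate 2, MG replicate 1 or MG replicate 2.

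The steepest named rise rested on 1 library. Solyc09g010210, annotated with cell wall modification during cell growth, had 5.57, 34.5 and 1.10 CPM at B, against 0.514, 0.799 and 0.699 CPM at MG (4.24, SE 0.73, adjusted p = 5.4e-05, edgeR). No B library lay within the MG range, but B replicate 2 was far above B replicates 1 and 3. Without B replicate 2 the log2 fold change was 2.25 and the call was lost (adjusted p = 0.087). Solyc08g066240, named here after its values were seen, had 4.90, 59.4 and 1.15 CPM at B, against 0.889, 2.30 and 0.699 CPM at MG, with B replicate 3 inside the MG range. Its log2 fold change was 3.96 (SE 0.89, adjusted p = 0.0044, edgeR).

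Beyond single calls, lists of genes lay to one side of 0. The lists were described by counts and by the median log2 fold change. All genes tested gave a median of 0 (0.03 when libraries were scaled by their totals alone). Called counts of every list stand beside 1.70% falling and 0.267% rising over all genes tested. Modules and study-named genes apart, members could only come from the 1283 genes described in the supplementary tables held. Those tables list genes by the study's modules, built on these libraries. Such lists do not stand for whole gene families and can repeat the shifts of the modules. Module ME10 held 280 tested genes, of which 5 fell and none rose, against 1.70% falling and 0.267% rising over all genes tested. Its median was −0.29 (−0.21 without MG replicate 1), and 218 of its genes had a negative log2 fold change. Every B library was below every MG library in 83 genes (105 after TMM scaling), against 10.0% (14.6%) of all genes tested, and above in 16 (8), against 19.0% (13.5%). Summed over the module, levels were 173714, 150939 and 161051 CPM at B, against 196419, 180968 and 183330 CPM at MG. All B libraries were lower than all MG libraries in this sum.

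The LEA proteins and dehydrins, hydrophilic proteins that protect dry cells, held 29 tested genes. None of them was called, and their median log2 fold change was −0.27 (−0.24 without MG replicate 1), with 27 negative values. Their summed level was 75297, 64348 and 68571 CPM at B, against 82491, 69610 and 77831 CPM at MG, so the stages overlapped. The dehydrin Solyc02g084840 had 14918, 13452 and 13060 CPM at B, against 16502, 16143 and 16100 CPM at MG (−0.32, SE 0.31, adjusted p = 0.694, edgeR). Its B libraries were all below its MG libraries, but the difference did not pass the test.

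Of 24 heat shock and chaperone genes, the DNAJ gene above fell and none rose, with a median of −0.31 (also −0.31 without MG replicate 1). Their summed level overlapped, with 29400, 30153 and 32750 CPM at B, against 27083, 29347 and 31660 CPM at MG. Most of that sum came from a BAG family chaperone regulator (Solyc01g095320), with 16181, 18972 and 19665 CPM at B, against 14166, 15083 and 17558 CPM at MG (0.14, SE 0.32, adjusted p = 0.910, edgeR). Scaled by library totals alone, as the sum was, the median of the members was −0.23. On that scale the sum and the median thus lay on opposite sides. The sum was not taken after TMM scaling.

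None of the 10 storage protein and oil body genes was called, with a median of −0.12 (−0.13 without MG replicate 1). The 10 genes summed to 24125, 21691 and 23534 CPM at B, against 28815, 27512 and 27111 CPM at MG. A vicilin-like storage protein (Solyc09g065470) made up much of this, with 8967, 8332 and 9295 CPM at B, against 14801, 13104 and 12239 CPM at MG (−0.68, SE 0.26, adjusted p = 0.137, edgeR). Its stages did not overlap, yet the test was not passed. Of 7 sugar and starch genes the SWEET transporter fell. Galactinol synthase 1 (Solyc01g100830), which makes the donor for raffinose-type sugars, had 598, 392 and 493 CPM at B, against 1179, 699 and 648 CPM at MG (−0.85, SE 0.39, adjusted p = 0.244, edgeR).

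On the other side lay module ME2. The study built this module on these libraries and related it to late maturation in both embryo and endosperm. The list taken here was its 448 most connected genes. Of these 4 rose and none fell, against 0.267% and 1.70% over all genes tested. Their median log2 fold change was 0.34 (0.29 without MG replicate 1). Every B library was above every MG library in 296 of the 448 genes (246 after TMM scaling), and in none was every B library below. Over all genes tested these shares were 19.0% above (13.5% after TMM scaling) and 10.0% below (14.6%). Their summed level was 15699, 16589 and 16802 CPM at B, against 10181, 11516 and 12107 CPM at MG. The stages did not overlap, and MG replicate 1 was lowest. The modest size of these changes left nearly all of them under the fold threshold. Over all 657 tested ME2 genes held, the median was 0.31, and 5 rose and 1 fell, which was PYL10. Every B library was above every MG library in 353 of them (288 after TMM scaling) and below in 8 (13).

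Pentatricopeptide repeat proteins bind RNA in plastids and mitochondria and take part in its editing, splicing and translation. Of 72 tested genes described so in the supplementary tables held, 1 rose and none fell. Their median was 0.32 (0.24 without MG replicate 1), with 70 positive values. Every B library was above every MG library in 40 of them (36 after TMM scaling), against 19.0% (13.5%) of all genes tested. Summed levels were 731, 826 and 830 CPM at B, against 558, 605 and 642 CPM at MG. The gene that rose, Solyc02g068760, had 4.80, 4.97 and 5.25 CPM at B, against 1.5, 2.72 and 2.52 CPM at MG (1.07, SE 0.32, adjusted p = 0.030, edgeR). Its call was lost without any 1 of the B libraries or MG replicate 1. A gene can belong to this list and to a module, as Solyc02g068760 does to ME2, so the lists are not independent.

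Ribosome and translation genes lay on the same side without a call, with a median of 0.29 over 43 genes (0.16 without MG replicate 1). Their summed level was 1155, 1081 and 1134 CPM at B, against 811, 933 and 944 CPM at MG. The largest contributor was a 50S ribosomal protein L1 gene (Solyc01g087730), of the plastid type of ribosome, with 377, 361 and 368 CPM at B, against 209, 235 and 259 CPM at MG (0.57, SE 0.20, adjusted p = 0.076, edgeR). Every B library was above every MG library. The 225 genes held of module ME4, which the study linked to the endosperm, had a median of 0.29 (0.24 without MG replicate 1). Of them 1 was called higher and 1 lower, against 0.267% and 1.70% over all genes tested. The riser was Solyc03g083120, annotated with double-strand break repair by homologous recombination, with 4.0, 3.84 and 5.63 CPM at B, against 1.36, 2.30 and 2.61 CPM at MG (1.02, SE 0.30, adjusted p = 0.028, edgeR). Its call was lost without B replicate 3, MG replicate 1 or MG replicate 2.

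**Figure D3:**
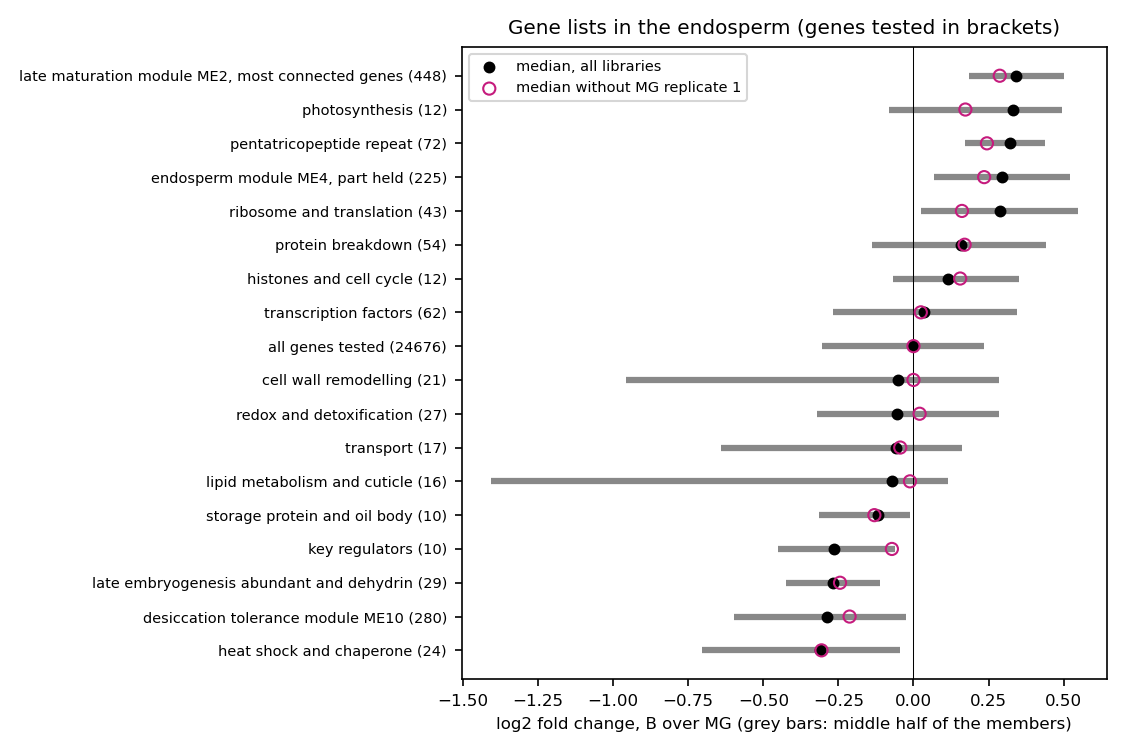
Median log2 fold change (B over MG) of each gene list with 10 or more tested genes and of all 24676 genes tested, with all libraries (filled) and without MG replicate 1 (open), and grey bars from the lower to the upper quartile of the members. The most connected genes of ME2 lie highest at 0.34 and heat shock genes lowest at −0.31, and no list lies past a log2 change of 1.

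Several other lists lay near 0, but not that of photosynthesis genes. Transcription factors had a median of 0.04 and none of their 62 genes was called. Cell wall remodelling genes (21), redox and detoxification genes (27) and lipid metabolism genes (16) had medians between −0.07 and −0.05, also with no gene called. Without MG replicate 1 these medians were 0 for cell wall, 0.02 for redox and −0.01 for lipid genes. Photosynthesis genes had a median of 0.33 (0.17 without MG replicate 1), while the 2 of 12 that were called, ferredoxin and the photosystem II protein above, both fell. Of 54 genes of protein breakdown 1 rose, an F-box gene (Solyc07g054340) with 2.62, 3.08 and 3.20 CPM at B, against 0.795, 1.60 and 1.44 CPM at MG (1.13, SE 0.34, adjusted p = 0.035, edgeR). Its call was lost without any 1 of the B libraries or MG replicate 1. Of 4 genes of gibberellin function and of 7 of other hormones none was called.

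None of the 10 regulators of seed maturation and dormancy that the study singled out was called. SlABI3-1, a master regulator of maturation, had 125, 147 and 132 CPM at B, against 169, 132 and 134 CPM at MG (−0.19, SE 0.20, adjusted p = 0.721, edgeR). SlABI5, a bZIP factor of the abscisic acid response, had 196, 207 and 225 CPM at B, against 188, 183 and 209 CPM at MG (0.03, SE 0.22, adjusted p = 1.000, edgeR). The stages overlapped in both genes.

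SlDOG1-2, of the Delay of Germination family, had 119, 84.8 and 113 CPM at B, against 124, 133 and 147 CPM at MG (−0.43, SE 0.36, adjusted p = 0.621, edgeR). It was the only one of the 10 whose stages did not overlap, against the 10.0% given above. Its relative SlDOG1-1 had 145, 232 and 168 CPM at B, against 160, 148 and 210 CPM at MG (−0.02, SE 0.33, adjusted p = 1.000, edgeR). PROCERA, the DELLA repressor of gibberellin responses, had 145, 157 and 177 CPM at B, against 111, 173 and 148 CPM at MG (0.07, SE 0.20, adjusted p = 0.944, edgeR). SlABI4-2 had 1.54, 0 and 0.538 CPM at B, against 0.261, 2.47 and 1.82 CPM at MG (−1.23, SE 0.75, adjusted p = 0.43, edgeR), with overlapping stages. SlFUS3, SlWRI1 and SlABI4-1 were below 1 CPM in all 6 libraries and did not pass the test.

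Of 30 further genes named in the study's text none was called, but 5 passed the adjusted p with a change under the fold threshold. Over all 24676 genes tested, 1201 passed this adjusted p, 503 of them higher at B. The 5 belong to modules ME2 and ME4, which the study built on these same libraries. PRMT5 (Solyc08g005970), which methylates arginine in histones and splicing factors, had 324, 342 and 346 CPM at B, against 131, 210 and 204 CPM at MG (0.81, SE 0.14, adjusted p = 4.9e-05, edgeR). The mRNA adenosine methylase (Solyc08g066730), the writer of N6-methyladenosine, had 624, 745 and 705 CPM at B, against 300, 340 and 394 CPM at MG (0.92, SE 0.17, adjusted p = 2.1e-04, edgeR). In both genes every B library was far above every MG library. PFT1 (Solyc05g009710), a Mediator subunit that acts in flowering, had 49.3, 55.7 and 51.9 CPM at B, against 36.1, 33.5 and 38.5 CPM at MG (0.45, SE 0.12, adjusted p = 0.018, edgeR). A pair of DNA repair genes (Solyc01g105520 and Solyc01g105530) were the other two, with log2 fold changes of 0.84 and 0.85 (adjusted p = 0.0055 and 0.013, edgeR).

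Protective genes of the same set gave small differences. PARP3, a poly(ADP-ribose) polymerase of DNA repair, had 988, 1133 and 1129 CPM at B, against 957, 945 and 938 CPM at MG (0.11, SE 0.26, adjusted p = 0.923, edgeR). The lipocalin gene had 728, 477 and 570 CPM at B, against 744, 864 and 775 CPM at MG (−0.50, SE 0.37, adjusted p = 0.542, edgeR). The gene of malic enzyme 2 (Solyc12g008430) had 835, 774 and 830 CPM at B, against 1289, 1149 and 1106 CPM at MG (−0.62, SE 0.48, adjusted p = 0.58, edgeR). By library totals the stages did not overlap in any of these 3 genes, and none passed the test. Over all genes tested, every B library was above every MG library in 19.0% and below in 10.0%. MSRB1 (Solyc07g062060), also of this set, had 66.3, 54.4 and 58.6 CPM at B, against 64.0, 67.7 and 76.6 CPM at MG. Its stages overlapped (−0.30, SE 0.22, adjusted p = 0.552, edgeR).

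Of the functional terms, 2 are given here that were picked after the values were seen and not tested for enrichment. Term members were taken only from the study's lists of enriched terms, made by module on these libraries. They are not all genes of a function, and their counts can repeat the shifts of the modules. Of 12 genes annotated with the cellular response to hypoxia, 5 fell and none rose, against 1.70% and 0.267% over all genes. Of the 5, Solyc03g006700 had 0, 0.0474 and 0.0477 CPM at B, against 8.51, 3.34 and 0.513 CPM at MG. Solyc04g016000 had 0.714, 0.711 and 0.334 CPM at B, against 6.13, 2.35 and 1.40 CPM at MG (−2.56, SE 0.52, adjusted p = 6.6e-04, edgeR). Of 20 genes annotated with proanthocyanidin synthesis, the pathway of the tannins of seed coats, 5 fell and none rose. Solyc12g006360 had 0.190, 0.0474 and 0.143 CPM at B, against 7.53, 4.84 and 0.886 CPM at MG, and Solyc09g065100 had 0.0476, 0.190 and 0.191 CPM at B, against 7.48, 4.18 and 1.54 CPM at MG. All these levels were low, and in each of the 4 genes MG replicate 1 was highest and MG replicate 3 lowest.

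Placed in the full course of 11 endosperm stages, the called genes were already in motion. The 420 falling genes summed to between 53133 and 56912 CPM at 35 DAF and between 25662 and 29187 CPM at 49 DAF. After B they stayed low, with between 1220 and 4153 CPM from pale orange fruits to fruits 14 days past red. By their stage means, 218 of the 420 were highest at 49 DAF, 100 at 35 DAF and 65 at MG. The 66 rising genes summed to between 34.1 and 74.7 CPM at 49 DAF and went on to between 1714 and 2087 CPM in fruits 7 and 14 days past red. Of these, 19 were highest at B itself, and 17 and 11 were highest 7 and 14 days past red.

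Named genes followed these courses. Solyc01g099840 averaged 7.37 ± 5.12 CPM at 49 DAF, 116 ± 50.4 at MG, 336 ± 27.4 at B and 1496 ± 231 in fruits 14 days past red (SD, n = 3 each). PRMT5 averaged 57.0 ± 3.87 CPM at 49 DAF, 182 ± 44.4 at MG, 337 ± 11.4 at B and 1002 ± 84.5 in fruits 14 days past red. Solyc09g010210 was different, with a mean of 13.7 CPM at B and at most 1.93 CPM at any other stage. Stages after B were not tested here.

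**Figure D4:**
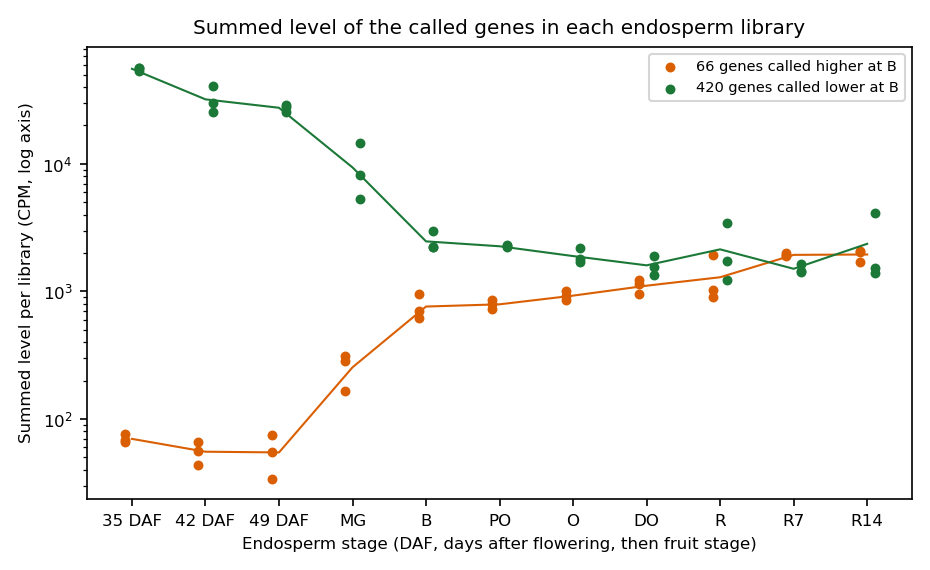
Summed level (CPM, log axis) of the 420 genes called lower and the 66 genes called higher at B, in each endosperm library from 35 DAF to 14 days past red, with lines through the stage means. The falling genes drop most between 49 DAF and B and the rising genes climb after 49 DAF, to between 1714 and 2087 CPM in fruits 7 and 14 days past red. The genes were chosen by their difference between B and MG.

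The embryo of the same stages was set beside the endosperm with the same test. There 370 genes were called (1.50%), 109 higher (0.442%) and 261 lower (1.06%) at B. When libraries were scaled by their totals alone, the embryo counts were 234 higher and 156 lower, so the balance of directions in the embryo depended on the scaling, whereas in the endosperm they were 101 higher and 372 lower. Without embryo MG replicate 1 the number was 94, and it was 228, 240 and 218 without embryo B replicates 1, 2 and 3. Of the 420 genes that fell in the endosperm, 37 also fell in the embryo (8.81% of the endosperm list and 14.2% of the embryo list). Of the 66 that rose, 3 also rose in the embryo (4.55% and 2.75% of these lists).

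Whether the endosperm changed differently was tested as the endosperm change minus the embryo change, and 13 genes were called (0.0527%). Of these, 12 had a lower change in the endosperm (0.0486%) and 1 a higher one (0.00405%). Called in the endosperm as well were 12 of the 13. The largest difference among those that reached 10 CPM was that of Solyc02g077330. In the endosperm it had 0.428, 0.569 and 0.382 CPM at B, against 37.4, 14.3 and 2.84 CPM at MG, and in the embryo it had 0.472, 0.287 and 0.0472 CPM at B, against 0.0918, 0.0466 and 0 CPM at MG. The difference of log2 fold changes was −7.59 (SE 1.61, adjusted p = 0.026, edgeR), and the embryo libraries were at or near the floor of 3 counts.

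Solyc12g014420 had 1.33, 1.09 and 0.906 CPM at B, against 53.8, 31.1 and 5.92 CPM at MG in the endosperm, and stayed between 1.09 and 2.19 CPM in the embryo (difference −4.51, SE 0.75, adjusted p = 0.0027, edgeR). Solyc01g107910 had 0.809, 0.663 and 0.477 CPM at B, against 47.5, 26.0 and 6.80 CPM at MG in the endosperm, with at most 1.27 CPM in the embryo (−5.49, SE 1.11, adjusted p = 0.022, edgeR). Solyc11g066890 had 3.76, 6.40 and 3.96 CPM at B, against 44.2, 24.3 and 8.72 CPM at MG in the endosperm, and between 4.36 and 6.98 CPM in the embryo (−2.77, SE 0.57, adjusted p = 0.026, edgeR). In all of them the endosperm libraries of the stages did not overlap.

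Solyc03g031760 was the exception in level. It had 0.761, 0.237 and 0.286 CPM at B, against 5.24, 4.18 and 1.07 CPM at MG in the endosperm, while the embryo had 44.6, 36.8 and 36.3 CPM at B, against 16.5, 26.3 and 27.9 CPM at MG (−3.66, SE 0.70, adjusted p = 0.012, edgeR). None of these 5 genes had an annotation, and their means in the seed coat at 49 DAF were between 258 and 1376 CPM, above both other tissues. The part of seed coat in these differences was not tested. The only gene with a positive difference, Solyc04g007260, had 28.9, 31.3 and 34.2 CPM at B, against 12.9, 20.4 and 22.6 CPM at MG in the endosperm, and 0.897, 1.15 and 0.661 CPM at B, against 0.918, 1.77 and 1.62 CPM at MG in the embryo (1.51, SE 0.32, adjusted p = 0.040, edgeR).

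The difference between tissues rested on few libraries. With all libraries, DESeq2 called 53 genes. In edgeR without endosperm MG replicate 1 no gene was called, and 1310 of 25097 tested genes had an unadjusted p under 0.05. Without endosperm B replicate 2 or 3, edgeR called 2 genes each, and without endosperm MG replicate 3 there were 23. Without endosperm B replicate 1 there were 6, without embryo B replicate 1 there were 4, and without embryo MG replicate 1 or 2 there were 6 each. Endosperm and embryo libraries of the same number within a stage deviated from their groups together. With stage and number as a block, a fit chosen after seeing the data, 17 genes were called, and 3 of the 13 (Solyc02g077330, Solyc03g080180 and Solyc01g107910) were among them.

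**Figure D5:**
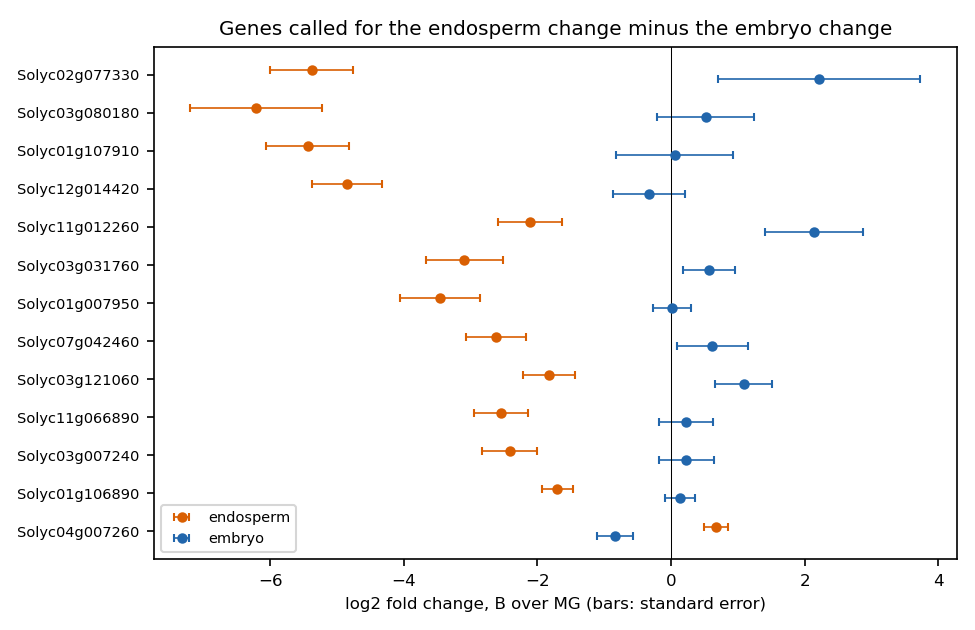
Log2 fold change (B over MG, bars for the standard error) of the 13 genes called for the difference between the tissues, in endosperm (orange) and embryo (blue). In 12 genes the endosperm value lies below the embryo value, by up to 7.59, and in Solyc04g007260 it lies above by 1.51.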

How the data were processed

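RNA of hand-dissected tissue was sequenced on BGISEQ-500. The deposited table holds estimated counts per gene, which the authors made with Salmon against tomato assembly SL4.0 and annotation ITAG 4.0, without normalization; 10.5% of its values were not whole. Counts were rounded to whole numbers, filtered with filterByExpr, scaled with TMM and fitted in edgeR 4.0.16 (R 4.3.3; glmQLFit, glmQLFTest) over all 84 libraries with 1 coefficient per tissue and stage, with Benjamini-Hochberg adjustment. The scripts were tested on simulated data. DESeq2 1.42.0 and other settings were alternatives. CPM used library totals (Python 3.11.15, pandas 2.3.3).

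The members and gene lists were chosen with earlier results of these data known, and modules, tissue markers and regulators come from the study, which picked them on these libraries. Supplementary tables were held in part: 1283 genes had a description and 1560 had functional terms, and the RefSeq table matched 0 identifiers. Genes were named when called, at 10 CPM or more at the higher stage and without overlap: up to 10 described rises and falls, the 2 steepest and 3 largest in level each way, up to 4 called genes per list with no minimum level, the 10 regulators and 5 genes that differed between tissues. Genes outside this rule were named from the study's text or, in the lists and terms, for their level after values were seen.

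Replicates are numbered as in the sample titles, which differ from the count columns: B replicates 1, 2 and 3 are columns 1, 3 and 4, and MG replicates 1, 2 and 3 are columns 2, 3 and 4. Between B and MG, deviations of same-numbered libraries correlated at 0.14, −0.06 and 0.22 in the endosperm and at 0.27, −0.002 and 0.26 in the embryo. Between endosperm and embryo within a stage they correlated at 0.17, 0.14 and 0.29 (B) and 0.46, 0.22 and 0.38 (MG). Differently numbered tissue pairs lay between −0.23 and 0.07 (B) and between −0.44 and 0.21 (MG). The labels do not say what a number marks, so neither pairing is settled.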

Additional observations from a re-analysis of the deposited data

Results flagged for a closer look

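The change between B and MG differed between endosperm and embryo, by a test of the difference itself, in 5 genes that reached 10 CPM and were called in the endosperm. The endosperm log2 fold change minus the embryo log2 fold change was −7.59 for Solyc02g077330, −5.49 for Solyc01g107910, −4.51 for Solyc12g014420, −3.66 for Solyc03g031760 and −2.77 for Solyc11g066890. All 5 were highest in MG replicate 1 and lowest in MG replicate 3 among the MG endosperm libraries. None of the 5 was called for the difference without endosperm MG replicate 1 or in the fit of only the 12 libraries compared. With stage and number as a block, a fit chosen after seeing the data, the call was kept for Solyc02g077330 and Solyc01g107910 and lost for Solyc12g014420 (adjusted p = 0.089, edgeR), Solyc03g031760 (0.106) and Solyc11g066890 (0.108).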

How the results depend on the processing

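In the endosperm, 481 genes were called with DESeq2, 473 with scaling by library totals alone, 449 with no filter, 379 with only the 6 libraries compared and 387 with the older edgeR setting, chosen after seeing the data. Of the 486 main calls, 386, 438, 445, 244 and 376 were among these, in the order given. Only 50.2% of the 486 were thus called from the 6 libraries alone. With no fold threshold 1201 genes were called (503 higher, 698 lower), and testing against the fold threshold with glmTreat left 136 (2 higher, 134 lower). Leaving out 1 library gave between 137 and 614 genes. In the embryo only the 6 libraries compared gave 170 genes, and leaving out 1 library gave between 94 and 502. For the difference between the tissues, DESeq2 called 53 genes, and leaving out 1 library gave between 0 and 23. In edgeR with only the 12 libraries compared, 0 were called (1639 of 19186 tested genes at an unadjusted p under 0.05). No call of the 35 named called genes changed sign under any alternative, and 33 were kept with DESeq2, 12 with glmTreat and 15 without MG replicate 1. With only the 6 libraries compared, 34 of them were tested and 27 kept the call. There the adjusted p of Solyc02g014730 was 0.013, against 2.9e-10 in the fit of all 84 libraries (edgeR).

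Between the stages, same-numbered libraries did not all deviate together (correlations of deviations in the endosperm 0.14, −0.06 and 0.22). With the replicate block in the fit of the libraries compared, 519 genes were called in the endosperm (303 of them among the 486), 266 in the embryo and 6 for the difference. A gene below 3 counts per library, 0.14 to 0.143 CPM, could not be told from absence at this depth.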
